A study of Drosophila melanogaster with 28 samples.

Results

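Small nuclear RNAs (snRNAs) are the 32 genes of the RNA-seq table whose identifier opens with snRNA, out of 17783 genes in the table. All of them were taken whatever their level, and they fell into 13 classes by the name that follows: 5 U1, 6 U2, 3 U4, 7 U5 and 3 U6 genes, and 1 gene each for U3, U7, U11, U12, U4atac, U6atac, 7SK and LU. Of these, 25 exceeded 10 FPKM (fragment counts scaled to transcript length and to library size) at 1 or more time points, 3 were detected below that level, and 4 were listed at 0 at every time point.

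The data came from whole adult Drosophila ovaries, sampled without heat shock (no HS) and at 0.5, 5, 9, 18, 28 and 38 h after heat shock (AHS). Every group shared 1 genotype: w; nosP-GAL4-NGT40 over a wild-type chromosome; and, on the third chromosome, bam86 in both copies, with the transgene P{w[+mC]=hs-bam.O}11d on 1 of them. The transgene puts the differentiation factor bam under a heat-shock promoter, so the no HS ovaries hold undifferentiated germ cells, and heat (37 °C for 1 h, 34 °C for 2 h, then 25 °C) starts their differentiation as a cohort, with cysts of mixed stages at any 1 time. The heat was given to the whole animal, somatic cells included, and the samples include no line without the transgene given the same heat. Cuffdiff combined the 2 libraries of each time point, so every gene has a single FPKM estimate there, deposited with 95% bounds. Values per library were therefore not analysed here, no SD or p-value is given, and a difference is described by its fold and by whether the bounds overlap.

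snRNAs are short, non-polyadenylated RNAs that work inside ribonucleoprotein particles. In the major spliceosome, U1 pairs with the 5′ splice site, U2 with the branch point, U6 with the 5′ splice site and with U2 at the catalytic core, U4 holds U6 until activation, and loop 1 of U5 contacts the exon ends. U11, U12, U4atac and U6atac replace U1, U2, U4 and U6 in the minor spliceosome, which removes a rare class of introns and shares U5. U7 directs 3′ end cleavage of histone pre-mRNA, and 7SK holds the elongation kinase P-TEFb inactive. RNA polymerase II transcribes most of them, and RNA polymerase III transcribes U6, U6atac and 7SK.

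Many of the U1, U2, U4, U5 and U6 genes are near-identical copies, so the sequences that tell the copies apart are shown first. They were read from the RefSeq Release 6 assembly (dm6) at the positions of the Ensembl 115 annotation, which holds 31 of the 32 genes (7SK under the name 7SKa); U3 had no entry and is named only. All 5 U1 genes are 164 nt long and differ at 3 positions. These are the 3 forms, with the positions that vary in capitals.
U1:82Eb: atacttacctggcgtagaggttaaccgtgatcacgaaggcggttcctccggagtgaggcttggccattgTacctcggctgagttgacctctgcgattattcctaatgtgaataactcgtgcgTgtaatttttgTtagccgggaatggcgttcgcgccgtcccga
U1:95Cc: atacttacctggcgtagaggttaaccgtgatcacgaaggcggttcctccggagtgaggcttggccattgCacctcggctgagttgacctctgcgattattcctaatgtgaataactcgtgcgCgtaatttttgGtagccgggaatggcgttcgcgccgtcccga
U1:95Ca: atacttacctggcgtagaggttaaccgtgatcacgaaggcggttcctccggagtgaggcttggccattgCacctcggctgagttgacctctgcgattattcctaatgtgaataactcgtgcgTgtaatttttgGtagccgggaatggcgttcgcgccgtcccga
U1:82Eb lies at chr3R:4947933-4948096 on the minus strand, U1:95Cc at chr3R:23826334-23826497 on the plus strand and U1:95Ca at chr3R:23859467-23859630 on the minus strand. Counted from the 5′ end, U1:82Eb differs from U1:95Ca by T70C and T134G, and U1:95Ca differs from U1:95Cc by T123C (in each, the base of the gene named first precedes the position). U1:21D and U1:95Cb have exactly the sequence of U1:95Ca. The letters CTTACCTG, the stretch that pairs with 5′ splice sites, begin at base 4 in all 5 U1 genes and occur in 0 of 257 annotated snoRNA genes on the same strand.

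The U1 genes with a base of their own at these positions were the ones with high levels. U1:95Cc was at 4669 FPKM at no HS and 5147, 4435, 4128, 8313, 3955 and 3517 FPKM at 0.5, 5, 9, 18, 28 and 38 h AHS. U1:82Eb was at 3392 FPKM at no HS and 3590, 2851, 2513, 7449, 3059 and 2835 FPKM at 0.5, 5, 9, 18, 28 and 38 h AHS. The 3 genes that share 1 sequence, U1:21D, U1:95Ca and U1:95Cb, were never above 8.93 FPKM, and none of them held more than 0.0708% of the summed U1 level at any time point. Because a read from any of those 3 genes fits all of them equally, their levels cannot be told apart, and the part of read assignment in this contrast was not tested.

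The U2 genes were compared in the same way. Bases 121 to 192 hold the 3 positions that vary among the 5 genes of 192 nt, in capitals; they are shown for the 4 forms.
U2:34ABa: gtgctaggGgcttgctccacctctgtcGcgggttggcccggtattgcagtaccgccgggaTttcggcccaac
U2:34ABc: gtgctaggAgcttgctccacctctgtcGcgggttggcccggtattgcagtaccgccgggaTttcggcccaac
U2:38ABa: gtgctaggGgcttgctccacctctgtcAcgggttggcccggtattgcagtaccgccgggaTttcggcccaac
U2:14B: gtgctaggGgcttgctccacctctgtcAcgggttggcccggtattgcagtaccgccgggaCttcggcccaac
The genes lie at chr2L:13211925-13212116 (U2:34ABa, minus strand), chr2L:13244370-13244561 (U2:34ABc, minus), chr2L:19815614-19815805 (U2:38ABa, minus) and chrX:16254672-16254863 (U2:14B, plus). U2:34ABa differs from U2:34ABc by G129A and from U2:38ABa by G148A, and U2:14B differs from U2:38ABa by C181T. U2:34ABb is identical to U2:34ABc, and U2:38ABb, at 191 nt, differs from its nearest copy by 1 base. GTAGTA, the letters of U2 that pair with the branch point, begin at base 34 in all 6 genes and were found in 1.17% of the snoRNA genes.

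U2:34ABa was the main U2 gene, at 1092 FPKM at no HS and 1656, 1324, 1665, 3878, 1484 and 1068 FPKM at 0.5, 5, 9, 18, 28 and 38 h AHS. It held between 83.9% and 91.2% of the summed U2 level. U2:34ABc followed at 125, 85.6, 124, 102, 221, 102 and 89.1 FPKM in the same order of times. U2:34ABb, of the same sequence, was at 28.6, 30.2, 20.6, 24.4, 46.2, 30.1 and 26.4 FPKM. These are 2 identical genes with different listed values, so neither value is a measurement of 1 gene alone. Lower still, U2:38ABa was at 24.8, 18, 21.2, 22.1, 45.5, 19.3 and 15.3 FPKM. U2:14B was at 16.5, 10.9, 11.9, 16.9, 26.7, 14.1 and 12.5 FPKM. U2:38ABb was at 15.1, 21.7, 14.5, 18.9, 36.1, 13.4 and 14.5 FPKM. The lower bounds of both 38AB genes were 0 at no HS and at 18 h AHS, with upper bounds of 253 and 221 FPKM at 18 h AHS for U2:38ABa and U2:38ABb, so their order among the low genes is not set.

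The 3 U6 genes share 1 sequence of 107 nt. U6 is the snRNA of the catalytic core of the major spliceosome. All 3 U6 genes were listed at 0 at every time point. U3, the box C/D RNA of ribosomal RNA processing that carries an snRNA name in the table, was also listed at 0 throughout. An RNA of the major spliceosome is thus listed at 0, and a value of 0 in this table does not show that the RNA was absent.

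Over all classes, 8 of the 31 annotated members share their whole sequence with another member (3 U1, 2 U2, 3 U6). Their highest value at any time point was 221 FPKM, and 2 of the 8 exceeded 10 FPKM. The 16 U1, U2, U4 and U5 genes with a sequence of their own were between 15.1 and 146438 FPKM at no HS, with a median of 4031 FPKM, and 11 of them exceeded 1000 FPKM at some time point. The 7 genes that are alone in their class ranged between 0 and 14422 FPKM at no HS. When each gene was split into 50-base windows, the 9 genes with 0% of their windows found once in the assembly (the 8 above and U2:38ABa) were all at or below 125 FPKM at no HS. These windows were shorter than the 150 nt reads of the libraries. A longer read can cover more of the differing bases, so 0% does not show that reads could not separate a gene. U2:38ABa, unlike the other 8, has a whole sequence of its own. A sequence of its own did not go with a high level in every case: U4:25F and U6atac, with 100% of windows found once, were at 100 and 44.5 FPKM at no HS.

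**Figure D1:**
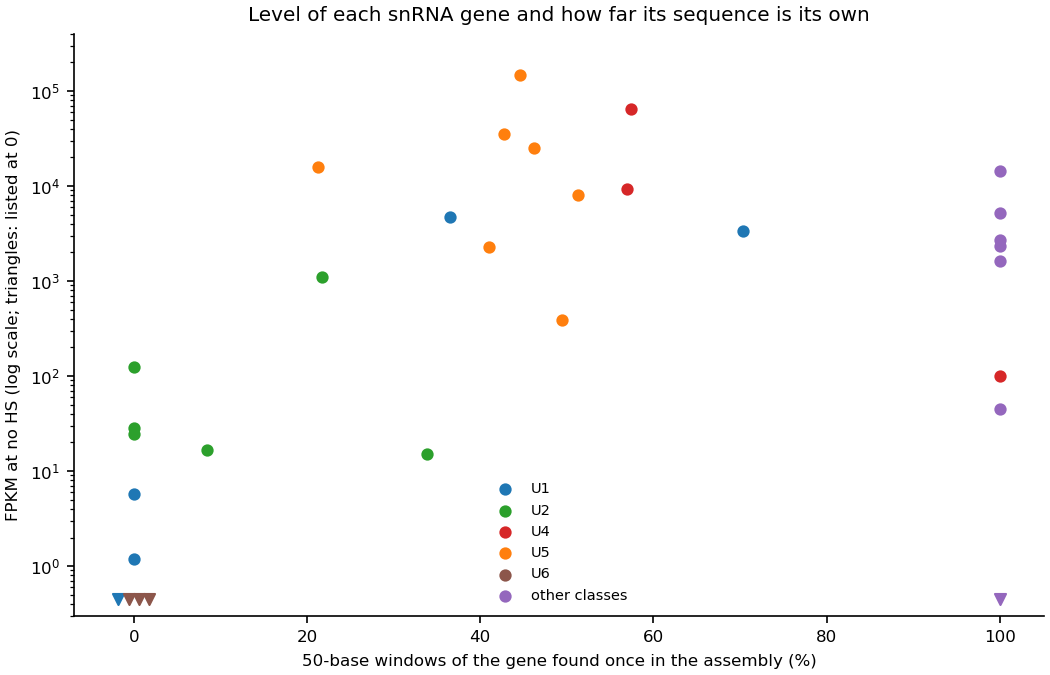
FPKM at no HS (log axis) of the 31 annotated snRNA genes against the percentage of their 50-base windows found once in the dm6 assembly, coloured by class, with triangles for genes listed at 0. The 9 genes at 0% on the horizontal axis lie at or below 125 FPKM, and U5:63BC, at 44.6%, is the highest at 146438 FPKM. The windows are shorter than the 150 nt reads, and U2:38ABa, at 0%, has a whole sequence of its own.

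The 7 U5 genes each have a whole sequence of their own, and 6 of them exceeded 1000 FPKM. They share an unbroken block of 85 bases at the 5′ end and differ after it. Between 21.3% (U5:14B) and 51.3% (U5:38ABa) of their 50-base windows were found once in the assembly. The part of read assignment in the U5 levels was not tested. U5:63BC had the highest level of any snRNA gene. For the other 6 genes the bases after the shared block are shown, since these tell the copies apart, with the first run of at least 4 T, the region where Sm proteins bind, in capitals.
U5:23D: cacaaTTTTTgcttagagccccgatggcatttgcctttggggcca
U5:34A: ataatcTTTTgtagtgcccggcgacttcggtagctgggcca
U5:14B: cacaaTTTTTTattgaggcctg
U5:38ABa: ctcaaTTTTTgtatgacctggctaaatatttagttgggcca
U5:38ABb: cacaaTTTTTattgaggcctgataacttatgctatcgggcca
U5:35D: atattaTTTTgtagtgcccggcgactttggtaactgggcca
In dm6 these 6 genes lie at chr2L:3048701-3048831 (U5:23D, plus strand), chr2L:13244848-13244974 (U5:34A, plus), chrX:16254008-16254117 (U5:14B, minus), chr2L:19811948-19812074 (U5:38ABa, minus), chr2L:19816414-19816540 (U5:38ABb, plus) and chr2L:15751557-15751682 (U5:35D, minus). The annotated U5:14B ends 22 bases after the block, against 38 to 45 bases for the others. U5:34A and U5:35D are the closest pair, with 5 differences.

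U5:63BC was at 146438 FPKM at no HS and 154242, 124205, 137232, 361882, 145374 and 127709 FPKM at 0.5, 5, 9, 18, 28 and 38 h AHS. U5:23D was at 35505, 41078, 30850, 31626, 67163, 29927 and 27204 FPKM in the same order. U5:34A was at 25408, 30206, 24627, 26329, 51597, 23323 and 19456 FPKM. These 3 genes kept their order at every time point, and U5:63BC alone held between 59.8% and 66.9% of the U5 level. U5:14B was at 15792, 21996, 16742, 15520, 36785, 14165 and 11530 FPKM. U5:38ABa was at 7962, 8146, 6948, 7866, 18390, 7234 and 5341 FPKM. U5:38ABb was at 2291, 2104, 2116, 2607, 5140, 1703 and 1438 FPKM, with a lower bound of 0 at no HS and at 18 h AHS. Both 38AB genes stayed below the 4 genes named before them. Last, U5:35D was at 390 FPKM at no HS and 166, 171, 259, 365, 111 and 169 FPKM at 0.5, 5, 9, 18, 28 and 38 h AHS, between 0.0501% and 0.167% of the U5 level. Its difference from its near-copy U5:34A was far wider than the bounds of either gene: at no HS, 280 to 501 FPKM for U5:35D and 20513 to 30304 FPKM for U5:34A. The bounds need not cover how reads were assigned between near-copies, and the part of read assignment in this difference was not tested.

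Of the 3 U4 genes, U4:39B and U4:38AB differ by 8 bases, and U4:25F is the divergent copy. U4:39B and U4:25F are shown to make that plain, with the bases that do not match between the pair in capitals.
U4:39B: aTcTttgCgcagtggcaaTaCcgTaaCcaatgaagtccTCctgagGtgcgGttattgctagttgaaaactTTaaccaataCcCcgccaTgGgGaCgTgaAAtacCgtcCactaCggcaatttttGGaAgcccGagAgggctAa
U4:25F: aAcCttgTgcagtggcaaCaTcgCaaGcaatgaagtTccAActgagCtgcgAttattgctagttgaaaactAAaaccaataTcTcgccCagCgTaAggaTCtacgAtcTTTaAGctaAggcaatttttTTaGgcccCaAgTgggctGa
U4:39B (chr2L:21215036-21215178, minus strand) and U4:25F (chr2L:5565619-5565766, plus) match at 112 aligned bases. U4:39B was at 64892 FPKM at no HS and 75023, 64722, 68905, 169945, 72942 and 62386 FPKM at 0.5, 5, 9, 18, 28 and 38 h AHS. U4:38AB was at 9368, 10474, 8965, 8994, 23684, 9709 and 8037 FPKM. U4:39B held between 87.3% and 88.5% of the U4 level, the narrowest range of any leading gene among U1, U2, U4 and U5. U4:25F was at 100, 97.3, 65.7, 69.9, 125, 41.4 and 63 FPKM, between 0.0501% and 0.135% of the U4 level.

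Among the minor spliceosome RNAs, U11, the counterpart of U1, was at 5228 FPKM at no HS and 5309, 4924, 5408, 10410, 5972 and 5522 FPKM at 0.5, 5, 9, 18, 28 and 38 h AHS. U12, the counterpart of U2, was at 2694, 2534, 2386, 2459, 5164, 2822 and 2572 FPKM. U4atac was at 1608, 1655, 1544, 1576, 3382, 1712 and 1766 FPKM. These 3 lay in the same order at every time point. U6atac, the counterpart of U6, was much lower, at 44.5, 129, 60, 106, 244, 94.3 and 105 FPKM, with bounds that reached 0 at no HS and at 5 h AHS. U6atac is shown beside U7 because both are single-copy genes with low or broken series.
U6atac: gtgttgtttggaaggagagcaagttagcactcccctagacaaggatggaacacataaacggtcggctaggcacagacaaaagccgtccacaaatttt
U7: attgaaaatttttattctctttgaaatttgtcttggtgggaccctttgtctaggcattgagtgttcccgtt
U6atac lies at chr2L:8389724-8389820 and U7 at chr3L:3593823-3593893, both on the plus strand, and at 97 and 71 nt they are the shortest members. U7 was listed at 0 at no HS, at 5 h AHS and at 18 h AHS. Between these zeros it had 65.7 FPKM at 0.5 h AHS, 68.4 FPKM at 9 h AHS, 113 FPKM at 28 h AHS and 94.6 FPKM at 38 h AHS. The bounds of U7 were narrow where it had a value (60.4 to 70.9 FPKM at 0.5 h AHS) and were 0 to 0 where it was listed at 0, so the alternation of zeros and values lies outside what the bounds describe.

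7SK was at 14422 FPKM at no HS and 15405, 14144, 15324, 21680, 15107 and 12852 FPKM at 0.5, 5, 9, 18, 28 and 38 h AHS. At 444 nt it is the longest member and below 5 others by level at no HS. LU, annotated as an snRNA gene of 116 nt, was at 2322, 2933, 2374, 2427, 5571, 2984 and 3693 FPKM, with lower bounds of 0 at no HS, 5 h AHS and 18 h AHS. In sum, the snRNA genes held 343835 FPKM at no HS, of which U5 made up 68%, U4 21.6%, 7SK 4.19%, U1 2.35%, U11 1.52%, U12 0.783%, LU 0.675%, U4atac 0.468%, U2 0.378% and U6atac 0.013%. These shares are of what the table kept, and the order of classes cannot be read as the order of the RNAs in the cell: the 3 U6 genes, for instance, are absent from it.

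**Figure D2:**
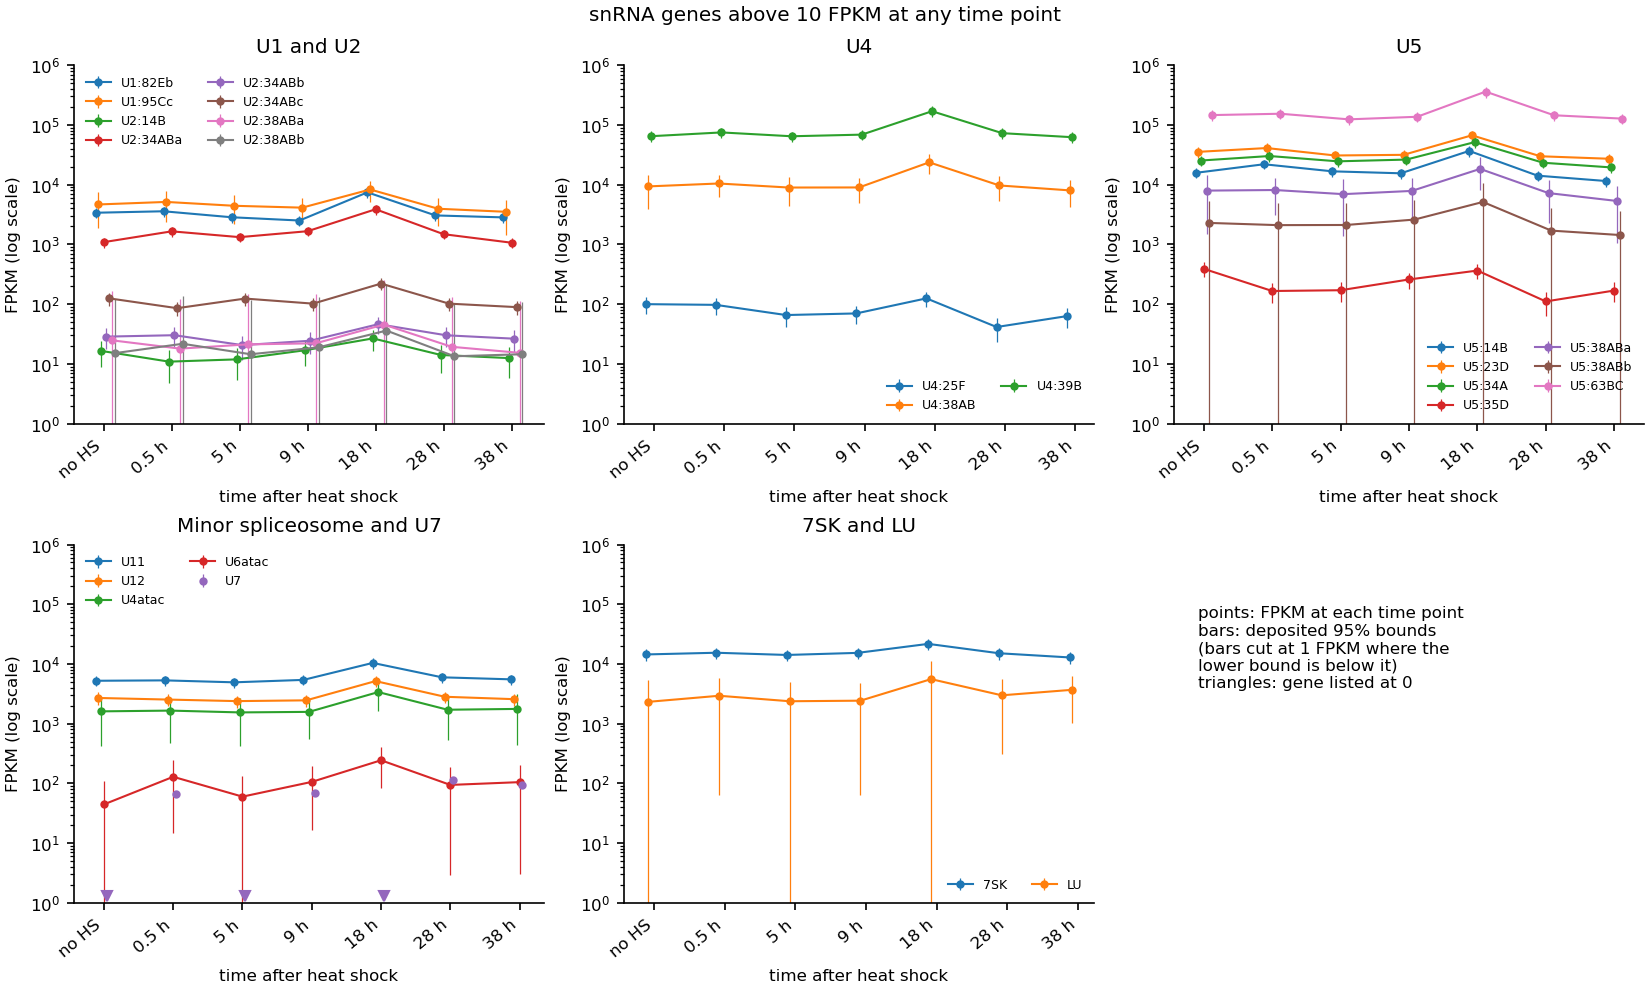
FPKM (log axis) of the 25 snRNA genes above 10 FPKM at any time point, by time after heat shock and by class, with the deposited 95% bounds as bars and triangles for values listed at 0. Of the 25 genes, 23 have their highest point at 18 h AHS, and the exceptions are U5:35D and U7.

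Some of the genes are neighbours. U2 and U5 genes stand side by side in 4 divergent pairs, with 286 to 608 bases between them: U5:34A with U2:34ABc, U5:38ABa with U2:38ABb, U5:38ABb with U2:38ABa and U5:14B with U2:14B. In each pair the U5 gene was the higher one, at 25408 against 125 FPKM, 7962 against 15.1 FPKM, 2291 against 24.8 FPKM and 15792 against 16.5 FPKM at no HS. The same order holds without regard to position. The lowest U5 gene, U5:35D, was at 390 FPKM at no HS, and every U2 gene except U2:34ABa was at or below 125 FPKM. The parts of gene length and of the sequence shared among U2 genes in this difference were not tested. The U2 gene with the highest level, U2:34ABa, is in no such pair. U1:95Cc and U1:95Cb, at 4669 and 1.19 FPKM, lie on the same strand with 1372 bases between them.

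Of the 31 annotated members, 17 overlap another annotated gene. U4:38AB, U2:38ABb and U5:38ABb overlap sick on the same strand, and U2:38ABa and U5:38ABa overlap it on the other strand. U4:39B overlaps Atg18b, and LU and U5:23D overlap FASN2, on the same strand. U12 overlaps Baldspot on the other strand. The table treats such genes in 1 longer locus, and by the median the bounds were wider there. The median half-width was 45.8% of the value over the 15 genes above 10 FPKM in a longer locus. It was 20.6% over the 10 genes alone in their locus. The groups overlapped: single genes ranged between 7.41% and 375% in longer loci and between 18.4% and 96.9% where alone. Cuffdiff's strand setting is not given in the sources used here, so reads of an overlapping gene cannot be told apart from those of the snRNA gene. The overlapping genes had low values beside the abundant members, such as 63 FPKM for sick and 0.935 FPKM for FASN2 at no HS, but not beside the low ones: U2:38ABa and U2:38ABb, at 24.8 and 15.1 FPKM, were below sick, U1:95Cb, at 1.19 FPKM, was below CG34355 at 7.64 FPKM, and U7, listed at 0, was below Eip63E at 32 FPKM.

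Against no HS, the time points were then compared by the rule of a fold above 1.6 with more than 10 FPKM at either time. At 18 h AHS the rule was passed upwards by 21 of the 24 snRNA genes above the minimum and downwards by 0, while over all 6661 genes above the minimum these shares were 4.20% and 1.16%. The median log2 change was 1.05 for the snRNA genes and 0.02 for all genes. Levels at 18 h AHS were above no HS for 23 of the 24. U4:25F and 7SK, at 1.24-fold and 1.5-fold, were short of the rule, and U5:35D was at 0.934-fold. U2:34ABb at 1.61-fold and U2:14B at 1.62-fold were the called genes nearest to the threshold.

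The size of the difference at 18 h AHS varied among the classes. Class sums were 3.27-fold for U2, 2.61-fold for U4, 2.4-fold for LU, 2.32-fold for U5, 2.1-fold for U4atac, 1.99-fold for U11, 1.96-fold for U1, 1.92-fold for U12 and 1.5-fold for 7SK, each at 18 h AHS over no HS. U2:34ABa set the U2 value: it was at 3878 FPKM (bounds 3132 to 4625) at 18 h AHS, against 1092 FPKM (886 to 1298) at no HS, a 3.55-fold difference, while the other 5 U2 genes were between 1.61-fold and 2.39-fold. U6atac had the largest fold, 5.47, but its bounds of 82.8 to 404 FPKM at 18 h AHS met the range of 0 to 111 FPKM at no HS. U5:63BC was at 361882 FPKM (287922 to 435842) at 18 h AHS, against 146438 FPKM (117550 to 175325) at no HS. In 11 of the 24 genes the bounds did not overlap and the rule was passed, which held for 1.59% of all genes. They were U11, U12, U1:82Eb, U2:34ABa, U2:34ABc, U4:38AB, U4:39B, U5:14B, U5:23D, U5:34A and U5:63BC.

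By fold, the difference at 18 h AHS was shared with other small RNAs of the table and so was not particular to snRNAs. Of the 191 snoRNA genes above the minimum, 143 were higher at that time and 16 lower, and their median log2 change was 0.93. The scaRNA genes, guides of snRNA modification, had 8 of 13 higher and 1 lower, with a median of 0.82. Among tRNA genes 21 of 27 were higher and 4 lower, but tRNA genes were also more often higher than lower at the other times (between 12 of 25 and 16 of 28 higher). With bounds also apart, 21 of 191 snoRNA, 0 of 13 scaRNA and 12 of 27 tRNA genes were higher at 18 h AHS, against 11 of 24 snRNA genes. With the snoRNA median set to 0, an alternative added after the data were seen, the snRNA median at 18 h AHS was 0.12, with 2 genes higher (U2:34ABa and U6atac) and 1 lower (U5:35D).

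The other genes were grouped by annotated length. The median log2 change at 18 h AHS was 1.13 under 100 nt, 0.88 at 100 to 149 nt, 0.95 at 150 to 199 nt and 0.85 at 200 to 299 nt. The median was 0.51 for other genes of 300 to 499 nt, 0.23 for those of 500 to 999 nt, 0.07 for those of 1000 to 1999 nt and -0.07 for longer ones. Among the snRNA genes the value was 2.45 for U6atac, the 1 gene under 100 nt, and the medians were 1.21 over the 11 of 100 to 149 nt, 0.88 over the 9 of 150 to 199 nt and 0.97 over the 2 of 200 to 299 nt, with 0.59 for 7SK at 444 nt. The snRNA value was above that of the other genes in 4 of these 5 bins and below it at 150 to 199 nt. Several bins hold only 1 or 2 snRNA genes. The median standard error of an snRNA gene's log2 change at 18 h AHS, taken from the bounds, was 0.30, so this tally sets no pattern. Length was available for 96.1% of the genes of the table. Summed snRNA level was 801558 FPKM at 18 h AHS, against 343835 FPKM at no HS, or 2.33-fold, and the sum over genes not named as small or ribosomal RNA was 1.17-fold. The part of length in the snRNA result was not tested. With 1 value for the 2 libraries it is not known whether both libraries of 18 h AHS show it.

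**Figure D3:**
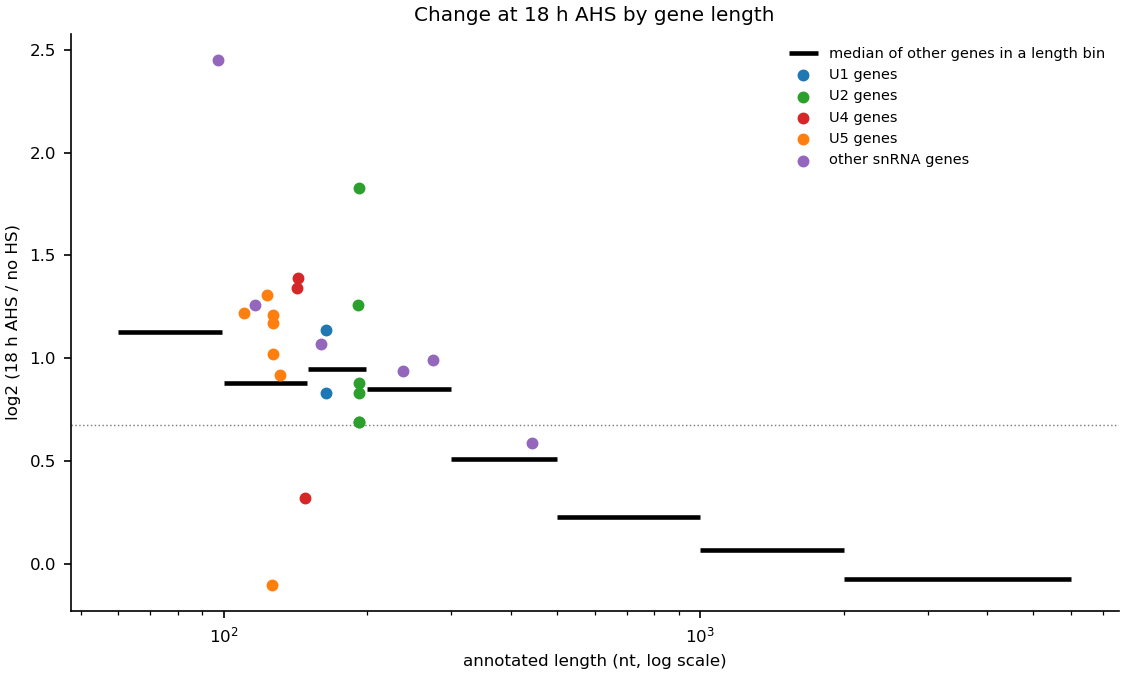
log2 change at 18 h AHS over no HS against annotated length (log axis) for 24 snRNA genes, coloured by class, with black bars for the median of the other genes in each length bin and a dotted line at 1.6-fold. The bars are at 0.85 or above for genes under 300 nt and at -0.07 for genes of 2000 nt or more. Among the snRNA genes U4:25F and U5:35D are the lowest points and U2:34ABa and U6atac the highest.

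At the other time points few members passed the rule. At 0.5 h AHS, collected to see the acute effect of heat, 2 of 25 were higher (U6atac and U7) and 1 lower (U5:35D), against shares of 4.87% and 4.38% over all genes. At 5 h AHS, 0 of 24 were higher and 1 was lower (U5:35D), against 1.29% and 1.74% of all genes. At 9 h AHS, 2 of 25 were higher (U6atac and U7) and 0 lower, against 1.63% and 2.35%. The higher calls were the same pair of genes, U6atac with overlapping bounds and U7 listed at 0 at no HS.

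At 28 h AHS, 2 of 25 were higher (U6atac and U7) and 2 lower (U4:25F and U5:35D), against 2.40% and 1.12% of all genes. At 38 h AHS, 2 of 25 were higher (U6atac and U7) and 2 lower (U2:38ABa and U5:35D), against 2.73% and 1.24%. Counts of 1 or 2 genes are too few to set against these percentages. U7 has no fold, being listed at 0 at no HS. For U6atac the fold was 2.9, 2.38, 2.12 and 2.35 at 0.5, 9, 28 and 38 h AHS, each time with bounds that met the no HS range.

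U5:35D was lower by the rule at 4 of the 6 times AHS. Its level at no HS was 390 FPKM (280 to 501), with 166 FPKM (106 to 226) at 0.5 h AHS, 171 FPKM (109 to 233) at 5 h AHS, 111 FPKM (64.1 to 158) at 28 h AHS and 169 FPKM (108 to 231) at 38 h AHS. At these 4 times AHS the bounds did not overlap with the no HS ones. At 9 and 18 h AHS its folds over no HS were 0.664 and 0.934. U4:25F, the low copy among the U4 genes, was at 41.4 FPKM (23.4 to 59.4) at 28 h AHS, against 100 FPKM (68.1 to 132) at no HS, and at 0.655-fold and 0.629-fold at 5 and 38 h AHS, short of the rule.

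Leaving 18 h AHS aside, none of the 16 members above 1000 FPKM at no HS passed the rule. At these times between 1.12% and 4.87% of all genes passed it in a given direction, so this count is not read as unusual stability. The 16 members varied to different degrees. 7SK varied between 0.891-fold and 1.07-fold, U12 between 0.886-fold and 1.05-fold, U11 between 0.942-fold and 1.14-fold, U4:39B between 0.961-fold and 1.16-fold and U5:63BC between 0.848-fold and 1.05-fold. Others ranged more widely, such as U5:14B between 0.73-fold and 1.39-fold, U5:38ABb between 0.628-fold and 1.14-fold, U1:82Eb between 0.741-fold and 1.06-fold and LU between 1.02-fold and 1.59-fold. U2:34ABa was at 1.52-fold and 1.53-fold at 0.5 and 9 h AHS, below the rule but with bounds apart from no HS. At 38 h AHS the snRNA median log2 change was -0.24, against 0.05 for all genes, and 4 of 24 members with a fold were above no HS. The U5 sum was at 0.825-fold and the U1 sum at 0.788-fold at 38 h AHS, while U4 was at 0.948-fold, U12 at 0.955-fold, U11 at 1.06-fold and U4atac at 1.1-fold. The bounds of U5:63BC, U5:23D, U5:34A, U1:82Eb and U1:95Cc at 38 h AHS and at no HS overlapped, so none of these differences was larger than the bounds. The medians at 0.5, 5, 9 and 28 h AHS were 0.08, -0.08, -0.03 and -0.13.

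**Figure D4:**
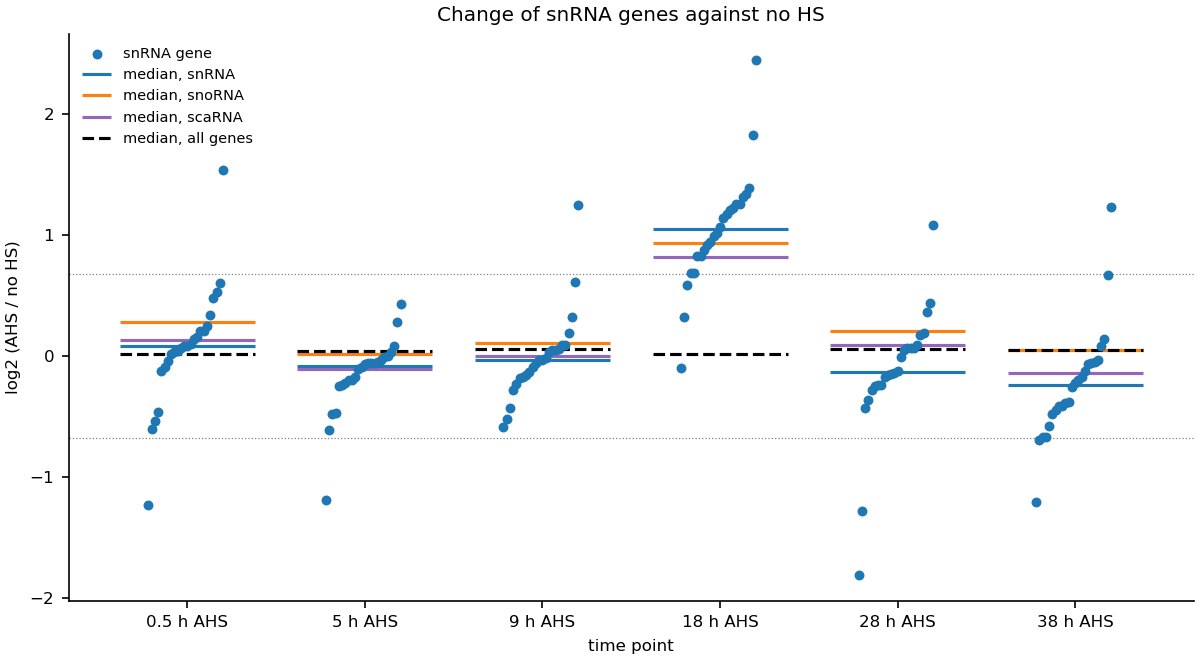
log2 change over no HS of each snRNA gene above 10 FPKM (points, sorted within a time point) at 6 time points, with the medians of snRNA, snoRNA, scaRNA and all genes as horizontal lines and dotted lines at 1.6-fold. The snRNA median is 1.05 at 18 h AHS and between -0.24 and 0.08 elsewhere, while the median of all genes stays between 0.02 and 0.06.

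The genes of the proteins that make, carry and work with snRNAs were compared by the same rule. Of 80 such genes in the table, 75 were above the minimum at 18 h AHS, with a median log2 change of 0.04. By the rule 0 were higher and 0 lower, against 4.20% and 1.16% of all genes. The 4.20% takes in the small RNAs. By length, 3.35% of other genes of 500 to 999 nt, 0.947% of 1000 to 1999 nt and 0.184% of longer ones were higher. The count of 0 is therefore not read as unusual stability. By group, the medians at 18 h AHS were 0.14 over 18 U1, U2 and Sm core proteins, 0.11 over 13 U4/U6.U5 tri-snRNP and LSm proteins, -0.00 over 20 factors of snRNA transcription and 3′ end processing (SNAPc, the Integrator complex), -0.01 over 13 of snRNP assembly, export and import, 0.03 over 6 of the U7 particle and histone pre-mRNA processing, and -0.03 over 5 of the 7SK particle and P-TEFb. Over the 6 time points 2 of the 80 passed the rule, each at 1 time. SmD3, a Sm ring protein, was the 1 lower gene at 0.5 h AHS, where 4.38% of all genes were lower, at 37.6 FPKM, against 66.5 FPKM at no HS, a log2 change of -0.82. LSm3, of the ring that binds the U6 3′ end, was the 1 higher gene at 28 h AHS, where 2.40% of all genes were higher, at 22 FPKM, against 12.8 FPKM at no HS, a log2 change of 0.78.

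The labelled tissue was checked against markers. The germline gene vas was between 184 and 211 FPKM at all time points, and all 19 markers of 5 cell types were detected at some time. Another germline gene, aub, stayed between 85.7 and 100 FPKM, but the remaining germline markers, nos and bgcn, were not constant. Levels of nos ranged from 28.5 FPKM (9 h AHS) to 102 FPKM (28 h AHS). Those of bgcn fell from 40.5 FPKM before heat shock to 17.6 and 11.4 FPKM by 18 and 28 h AHS. Summed eggshell markers of late follicle cells (4 genes) were 5954 FPKM at no HS, between 4737 and 8738 FPKM up to 9 h AHS, and 12423, 16112 and 14683 FPKM at 18, 28 and 38 h AHS. Vm26Aa made up most of this sum, with 5172 FPKM before heat shock and 10682 FPKM by 18 h AHS. Vml, next in level, also increased, from 769 to 1698 FPKM over the same interval. Both Cp genes were low and uneven. Cp36 had 11.8 FPKM before heat shock, then 54, 4.48 and 41.5 FPKM by 5, 9 and 18 h AHS. Cp18 had 2 FPKM before heat shock and 1.88 FPKM by both 18 and 28 h AHS, so it did not share the increase there. The authors treated genes of the chorion and vitelline membrane as contaminants and excluded them from their own later steps. The eggshell sum therefore does not show that late follicle cells belonged to the sampled stages or became more frequent. Sheath muscle markers (4 genes) summed to between 640 and 1294 FPKM, germline markers (4 genes) to between 353 and 428 FPKM, escort and follicle markers (4 genes) to between 267 and 371 FPKM and fat body markers (3 genes) to between 3889 and 7480 FPKM. Nearly all of the fat body sum was Yp1, a yolk protein gene that follicle cells also express, at 3886 to 7473 FPKM. Lsp2 and Fbp1 were at 6.85 and 4.45 FPKM at no HS and at or below 4.41 and 2.84 FPKM at all times AHS. The part of these shifts in the snRNA values was not tested. In whole ovaries, a change in the number of cells of a type and in RNA per cell cannot be told apart.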

How the data were processed

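Whole ovaries were lysed in polysome extraction buffer, debris was pelleted by centrifugation, and total RNA was extracted. How much of the snRNA stayed in the cleared lysate is not given, and the part of this step in the levels was not tested. The RNA was depleted of rRNA with RNase H, and stranded libraries (2 per time point, 14 in all) were sequenced as paired 150 nt reads. The authors trimmed reads, discarded those that Bowtie2 aligned to FlyBase non-coding RNA sequences, mapped the rest to dm6 with STAR and estimated FPKM with Cuffdiff 2.2.1. The deposited FPKM values are 1 per gene and time point, with 95% bounds and a status, which was OK for all 32 members at every time point. How snRNA reads passed the filter, how reads with several matches were shared, the library normalization and the depth per library are not given in the sources used here.

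Folds and log2 ratios were computed from FPKM without a pseudocount, with Python 3.11.15, pandas and Biopython, after the calculation was tested on simulated data. Named are all members above 10 FPKM and, from each protein list, up to 4 genes past the rule. Of the list names, 4 LSm names had no match and were left out. The members and lists were chosen with earlier results of these data known. The Ribo-seq table holds no snRNA gene and was not used. The sequences of U6 and U5:63BC are not reported here. Alternatives changed the fold (2), the minimum (20 FPKM or none), a pseudocount of 1 FPKM, 2 rescalings, the bounds and the status; 3 more were added after the data were seen.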

Additional observations from a re-analysis of the deposited data

How the results depend on the processing

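No paired analysis was possible because the table holds 1 value per time point estimated over both libraries, and for the same reason leaving out a replicate could not be run. Under the other minimums, the pseudocount and both rescalings, the median log2 change of the snRNA genes at 18 h AHS was between 0.82 and 1.05, the lowest under the rescaling to the same sum, and it was between -0.36 and 0.08 at the other times. The status filter could change nothing, because all 32 members had the status OK at every time point. A fold of 2 gave 13 higher genes at 18 h AHS and 1 lower at 38 h AHS. Demanding bounds that do not overlap gave 11 higher at 18 h AHS, 1 higher at each of 0.5, 9, 28 and 38 h AHS and 1 lower at 38 h AHS. The 1 higher gene was U7 each time, which was listed at 0 at no HS with bounds of 0 to 0. No minimum gave 1 higher and 2 lower at 5 h AHS, 1 lower at 9 h AHS and 4 lower at 38 h AHS. Adding 1 FPKM gave 19 higher at 18 h AHS and 1 lower at 38 h AHS. Rescaling to the same median gave 4 lower at 38 h AHS, and to the same sum of genes not named as small or ribosomal RNA gave 16 higher at 18 h AHS, 5 lower at 38 h AHS and 2 lower at 0.5 h AHS. Of the alternatives added after the data were seen, setting the snoRNA median to 0 gave 2 higher, 1 lower and a median of 0.12 at 18 h AHS, and 4, 1 and 4 lower at 0.5, 9 and 38 h AHS. Keeping the 10 genes alone in their locus gave 8 higher at 18 h AHS, 1 higher at each of 0.5, 9, 28 and 38 h AHS, and 1 lower at each of 28 and 38 h AHS. Counting identical copies once gave 21 higher and a median of 1.10 at 18 h AHS. For single genes, 9 of the log2 changes moved beyond their own error, all at 18 h AHS under the rescaling to the same sum, and 0 changed sign among called ones.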
